A study of Mus musculus with 8 samples.

Results

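Metallothioneins and the genes that sense and move zinc were examined in mouse hearts with raised perilipin 5, which coats lipid droplets. The 7 genes were Mt1, Mt2, Mt3, Mtf1, Slc30a1, Slc39a10 and Slc39a14, chosen by symbol out of the 19938 genes that the array named with a single symbol, and each had 1 row in the table. Transcript levels came from Affymetrix whole-transcript arrays, 1 per heart, for 4 male MHC-Plin5 mice and 4 male control mice. The animals of both groups were 12 weeks old and of c57/bl background, and the labels call the hearts fasted. The series title describes Plin5 overexpression in cardiomyocytes, the contracting cells of the heart. The control group is labelled only as control, so it is not given whether it carried any transgene. Values are log2 levels, and differences are MHC-Plin5 minus control, so that 1 unit is a doubling of signal.

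Metallothioneins are small proteins rich in cysteine that bind zinc and copper and can take up reactive oxygen species. In textbook accounts of mouse cells, free zinc activates the transcription factor MTF-1, encoded by Mtf1, which binds metal response elements in the promoters of Mt1, Mt2 and the zinc exporter gene Slc30a1. Glucocorticoids, oxidants and inflammatory cytokines also raise Mt1 and Mt2. Transporters of the SLC30 family move zinc out of the cytosol, and those of the SLC39 family move it in.

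The promoters of Mt1, Mt2 and Slc30a1 are shown because these are the textbook targets of MTF-1 among the 7 genes. Capitals mark matches to the core of the metal response element, TGCGCNC or TGCACNC, searched on both strands with overlapping matches counted separately. Sequences are from RefSeq (GRCm38.p6) and run from 250 bases before to 30 bases after the start that its promoter table uses. For Mt1 that window is chr8:94178839-94179118, for Mt2 chr8:94172368-94172647 and for Slc30a1 chr1:191906531-191906810, each on the plus strand. The gene spans of Mt1 and Slc30a1 begin upstream of the start used, at 94178883 and 191906697, so part of the stretch before that start lies inside the gene.
Mt1: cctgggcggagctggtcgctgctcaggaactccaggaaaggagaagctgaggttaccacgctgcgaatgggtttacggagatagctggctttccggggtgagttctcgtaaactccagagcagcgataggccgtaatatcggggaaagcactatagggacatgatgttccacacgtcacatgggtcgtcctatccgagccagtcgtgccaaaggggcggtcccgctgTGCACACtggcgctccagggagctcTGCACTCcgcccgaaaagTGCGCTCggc
Mt2: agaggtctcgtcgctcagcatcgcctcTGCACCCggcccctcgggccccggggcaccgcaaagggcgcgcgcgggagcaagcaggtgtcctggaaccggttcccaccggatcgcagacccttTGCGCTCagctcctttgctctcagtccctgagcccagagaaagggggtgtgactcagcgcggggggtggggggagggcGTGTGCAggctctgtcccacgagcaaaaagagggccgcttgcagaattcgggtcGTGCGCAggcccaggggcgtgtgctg
Slc30a1: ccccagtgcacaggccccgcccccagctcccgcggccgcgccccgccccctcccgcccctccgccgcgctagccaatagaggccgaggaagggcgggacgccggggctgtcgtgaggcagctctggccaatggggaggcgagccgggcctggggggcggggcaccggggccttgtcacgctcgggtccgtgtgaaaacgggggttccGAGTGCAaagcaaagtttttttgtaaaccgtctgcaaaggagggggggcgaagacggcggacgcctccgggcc

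The searched window ran on to 50 bases after the start. In it Mt2 had 4 matches and Mt1 had 3, while Slc30a1 had 2, of which 1 lies in the printed stretch. Of all 32851 promoter windows, 25.7% held at least 1 match, 7.11% at least 2, 1.97% at least 3 and 0.517% at least 4. Mt3 had 1 match, and Mtf1 and both windows of Slc39a10 had 0. Promoter windows were matched for 6 of the 7 genes, all but Slc39a14. In the same assembly the 4 mouse metallothionein genes are neighbours on chromosome 8 in the order Mt4, Mt3, Mt2 and Mt1. These matches describe letters and not binding.

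Plin5 itself checked the labels. It stood at 12.17, 12.69, 12.63 and 12.08 in MHC-Plin5 hearts 1 to 4, against 8.92, 8.87, 9.04 and 8.58 in control hearts 1 to 4. The cardiomyocyte markers Myh6, Tnnt2, Tnni3, Actc1, Myl2, Myl3, Ryr2 and Pln were among the strongest signals on the arrays, with a mean over the 8 markers of 13.29 to 13.59 in MHC-Plin5 and 13.57 to 13.62 in control hearts. Array medians were 5.99 to 6.18 in MHC-Plin5 hearts and 6.03 to 6.25 in control hearts, with MHC-Plin5 4 and control 2 highest. Nothing in the labels says more on how the hearts were sampled than 4 mice per group, and the 4 arrays per group limit the precision of each value.

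Mt2 was the only 1 of the 7 genes to pass the test, and it was 2.45-fold higher in MHC-Plin5 hearts. Its levels were 12.57, 13.12, 13.04 and 12.36 in MHC-Plin5 hearts 1 to 4, against 11.49, 11.87, 11.73 and 10.83 in control hearts 1 to 4. The groups did not overlap, and the lowest MHC-Plin5 heart lay above the highest control heart. The means were 12.78 ± 0.37 and 11.48 ± 0.46 (SD, n = 4 each), a log2 difference of 1.30 (SE 0.23, 95% interval 0.79 to 1.80). The limma adjusted p over all genes was 0.0144, and an exact permutation test over the 8 hearts gave a two-sided p of 0.0286, below which this design cannot go. Over all genes, 3.25% passed the same threshold, 2.08% higher and 1.17% lower, a share that 1 of 7 genes is too few to be read against. Without MHC-Plin5 2 the Mt2 difference was 1.18 and its adjusted p 0.0519.

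Mt1, the neighbour of Mt2 with the same metal-binding role, was 1.45-fold higher in the means but did not pass the threshold. It was measured at 11.69, 12.10, 12.03 and 11.70 in MHC-Plin5 hearts 1 to 4, against 11.17, 11.56, 11.52 and 11.12 in control hearts 1 to 4. Here too the groups did not overlap, as was so for 11.2% of all genes, 6.24% higher and 5% lower. The means were 11.88 ± 0.22 in MHC-Plin5 and 11.34 ± 0.23 in control hearts (SD, n = 4 each). The log2 difference was 0.54 (SE 0.14, 95% interval 0.22 to 0.85), with a limma adjusted p of 0.0696 and an exact permutation p of 0.0286. Without MHC-Plin5 4 the difference was 0.60 and the limma adjusted p 0.0461. With any other single heart left out Mt1 stayed over the threshold, at a limma adjusted p of 0.0652 to 0.209. In bulk hearts a change in the share of a cell type and a change in RNA per cell cannot be told apart, for Mt1, Mt2 or any other gene here.

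**Figure D1:**
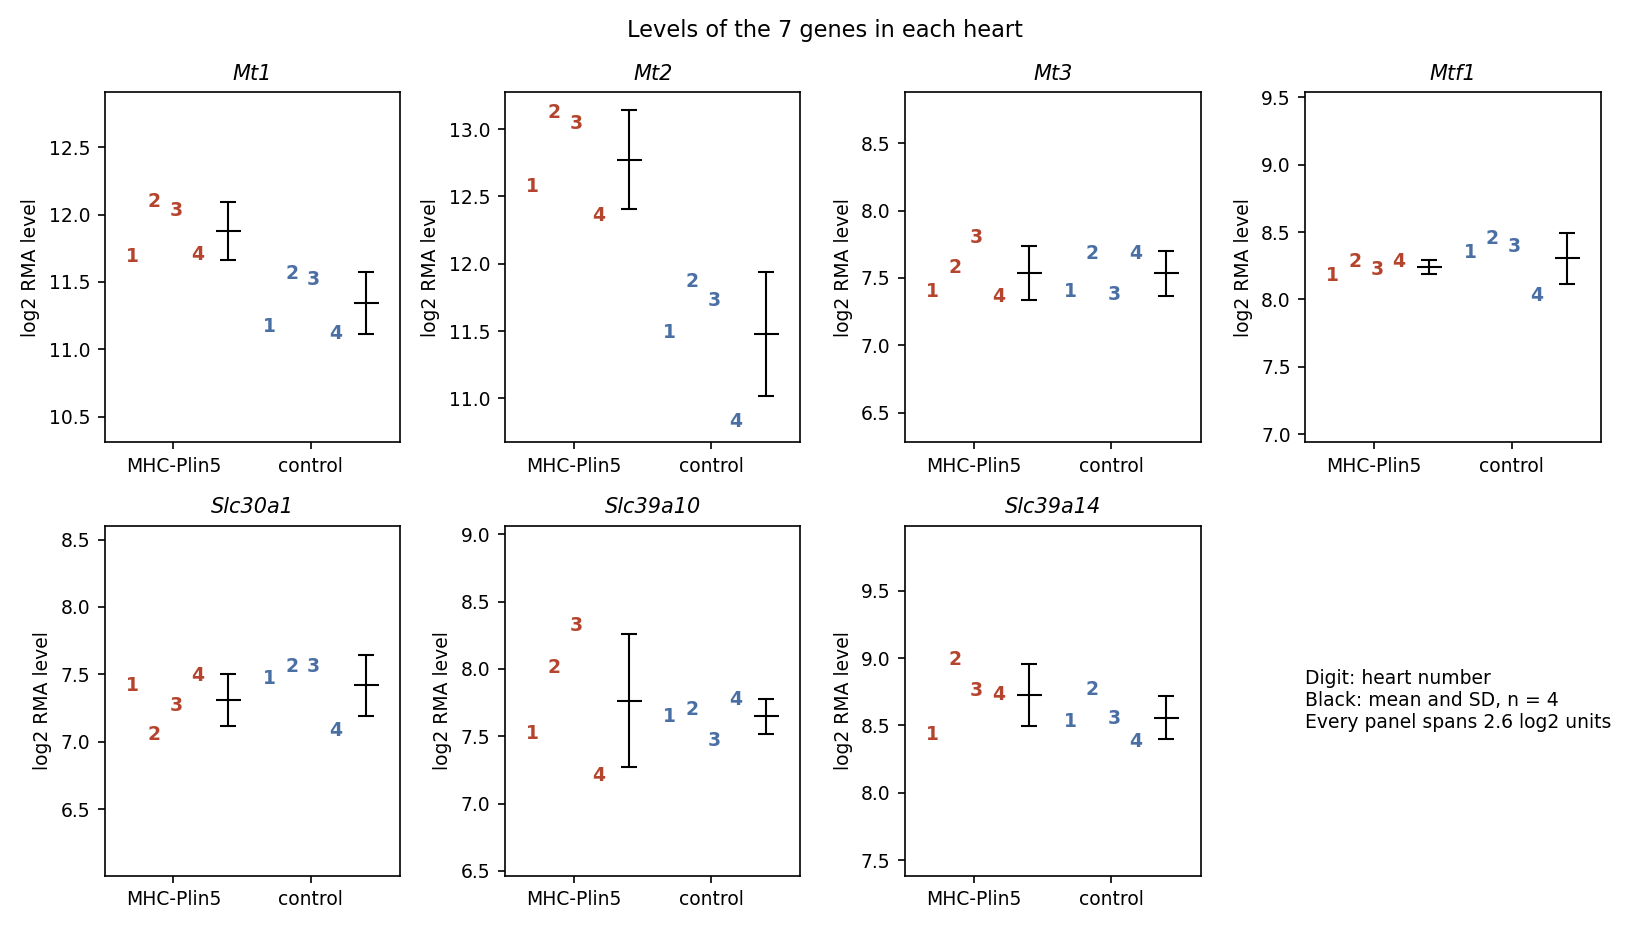
Log2 level (y axis) of each of the 7 genes in MHC-Plin5 hearts (left) and control hearts (right), with the heart number as the symbol and black bars for the mean and SD (n = 4). Mt1 and Mt2 show separate groups, and the other 5 genes show groups that overlap.

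The heart-to-heart pattern of Mt1 and Mt2 was shared. In both groups hearts 2 and 3 held the highest levels of both genes, and hearts 1 and 4 the lowest. Plin5 was also highest in hearts 2 and 3 of the MHC-Plin5 group, but in hearts 1 and 3 of the control group. As a description, deviations of Mt1 and Mt2 from their group means correlated with Pearson r = 0.900 over the 8 hearts, which share their arrays. Mt2 ranked 46 by this measure among the 14815 genes set against Mt1. Signal shared between the probes of these similar transcripts was not tested.

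The shift of Mt2 was larger than that of Mt1. The log2 level of Mt2 minus that of Mt1 within a heart was 0.89, 1.02, 1.02 and 0.67 in MHC-Plin5 hearts 1 to 4, against 0.32, 0.31, 0.21 and -0.29 in control hearts 1 to 4. Every MHC-Plin5 heart exceeded every control heart. The group means of this quantity were 0.90 ± 0.17 and 0.14 ± 0.29 (SD, n = 4 each) in MHC-Plin5 and control hearts, a difference of 0.76 with an exact two-sided permutation p of 0.0286. The choice to set these 2 genes against each other was made after their values were seen.

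**Figure D2:**
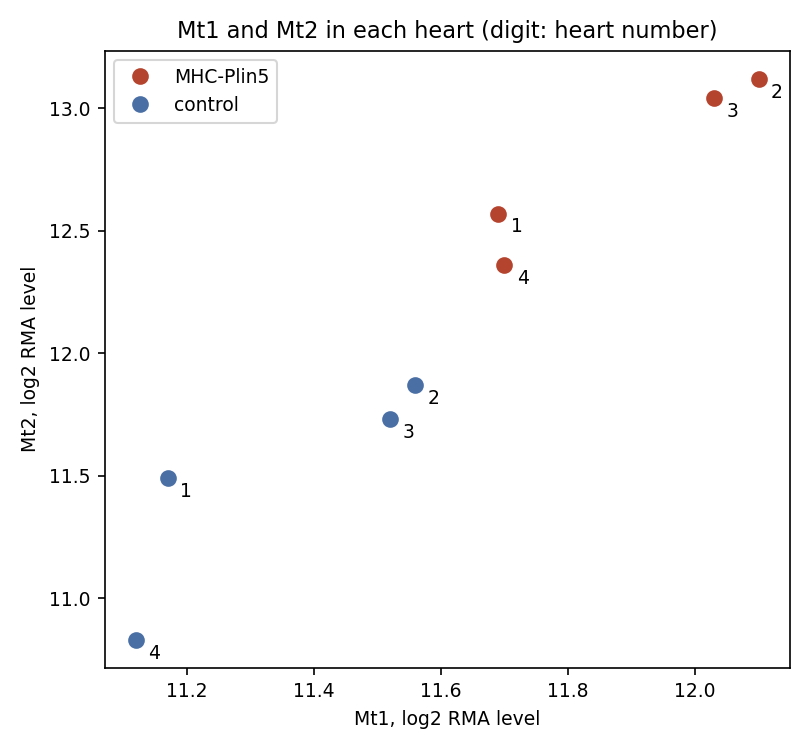
Log2 level of Mt2 (y axis) against Mt1 (x axis) in each heart, with MHC-Plin5 hearts in red and control hearts in blue. The 4 MHC-Plin5 hearts lie above and to the right of the 4 control hearts, and in each group hearts 2 and 3 are highest in both genes.

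Mt3, the metallothionein best known from brain, did not pass the test. It stood at 7.40, 7.58, 7.80 and 7.36 in MHC-Plin5 hearts 1 to 4, against 7.40, 7.68, 7.38 and 7.68 in control hearts 1 to 4. The 95% interval of the difference was -0.28 to 0.28 (adjusted p = 0.995 in limma). Mt4, the fourth mouse metallothionein and one of squamous epithelium, averaged 4.42 ± 0.15 in MHC-Plin5 and 4.51 ± 0.33 in control hearts (SD, n = 4 each). Its difference of -0.09 (interval -0.43 to 0.25) was not called either. Thus 1 of the 4 metallothioneins was called higher and 0 lower, where 3.25% of all genes were called.

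Mtf1, the zinc sensor that drives Mt1 and Mt2, did not pass the test. Its levels were 8.18, 8.28, 8.22 and 8.28 in MHC-Plin5 hearts 1 to 4, against 8.35, 8.45, 8.39 and 8.03 in control hearts 1 to 4. Control heart 4 lay below all MHC-Plin5 hearts and the other 3 control hearts above them. The difference was -0.07 (SE 0.11, 95% interval -0.30 to 0.17, limma adjusted p = 0.828). MTF-1 is controlled largely at the level of the protein, which these arrays do not measure.

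Slc30a1, the exporter of the plasma membrane and a textbook target of MTF-1, was not called. It measured 7.42, 7.05, 7.27 and 7.49 in MHC-Plin5 hearts 1 to 4, against 7.47, 7.56, 7.56 and 7.08 in control hearts 1 to 4. The groups overlapped throughout. Its difference of -0.11 had a 95% interval of -0.41 to 0.19 (limma adjusted p = 0.761).

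The 2 importers among the 7 genes also overlapped between groups. Slc39a10, an importer of the plasma membrane that MTF-1 is known to repress in mouse cells, stood at 7.52, 8.01, 8.32 and 7.21 in MHC-Plin5 hearts 1 to 4, against 7.65, 7.70, 7.47 and 7.77 in control hearts 1 to 4. The MHC-Plin5 hearts spread further (SD 0.50 against 0.13), with hearts 2 and 3 above every control heart and heart 4 below every one. The difference was 0.12 (95% interval -0.33 to 0.57, limma adjusted p = 0.837) and -0.07 without MHC-Plin5 3. Slc39a14, an importer of zinc, iron and manganese that inflammation raises in mouse liver, measured 8.43, 8.99, 8.76 and 8.73 in MHC-Plin5 hearts 1 to 4, against 8.53, 8.77, 8.55 and 8.38 in control hearts 1 to 4. Its difference was 0.17 (interval -0.12 to 0.46, limma adjusted p = 0.58).

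No transporter of the wider zinc families passed the threshold in limma. Of 10 exporters, 0 were called in either direction, 1 had an unadjusted p under 0.05, and the median difference was -0.04. Of 14 importers, 0 were called, 2 had an unadjusted p under 0.05, and the median was -0.00. Over all genes 3.25% were called, 16.6% had an unadjusted p under 0.05, and the median was -0.03. The exporter with the smallest p was Slc30a4, which loads zinc into vesicles. Its levels were 8.23, 9.25, 9.44 and 7.96 in MHC-Plin5 hearts 1 to 4, against 7.93, 7.85, 7.93 and 7.72 in control hearts 1 to 4. MHC-Plin5 hearts 2 and 3 stood more than 1 unit above every control heart, while hearts 1 and 4 lay just above the control range. The difference was 0.86 (SE 0.28, limma adjusted p = 0.142), and without MHC-Plin5 4 it was 1.11 with an adjusted p of 0.0274. With any other single heart left out Slc30a4 was not called, at a limma adjusted p of 0.0907 to 0.343.

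Among importers, Slc39a7, which releases zinc from the endoplasmic reticulum, had levels of 8.50, 8.54, 8.84 and 8.57 in MHC-Plin5 hearts 1 to 4, against 8.08, 8.26, 8.40 and 8.39 in control hearts 1 to 4. The groups did not overlap, but the difference of 0.33 was not called (SE 0.11, limma adjusted p = 0.159). Slc39a6, an importer of the plasma membrane, measured 6.68, 7.31, 7.86 and 6.77 in MHC-Plin5 hearts 1 to 4, against 6.44, 6.87, 6.61 and 6.23 in control hearts 1 to 4. Hearts 2 and 3 were again the highest MHC-Plin5 hearts, and the difference of 0.62 was not called (limma adjusted p = 0.214). Slc30a10, a manganese exporter, and Slc39a2 had groups that did not overlap in the other direction, with differences of -0.24 and -0.21 and limma adjusted p values of 0.329 and 0.331. Slc30a5, Slc30a6 and Slc30a7, which supply zinc to the secretory pathway, had differences of 0.09, -0.07 and 0.19. Slc39a8, an importer close to Slc39a14, ranged from 6.61 to 6.94 in MHC-Plin5 and from 6.25 to 8.09 in control hearts, so its interval was wide (-0.91 to 0.42).

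**Figure D3:**
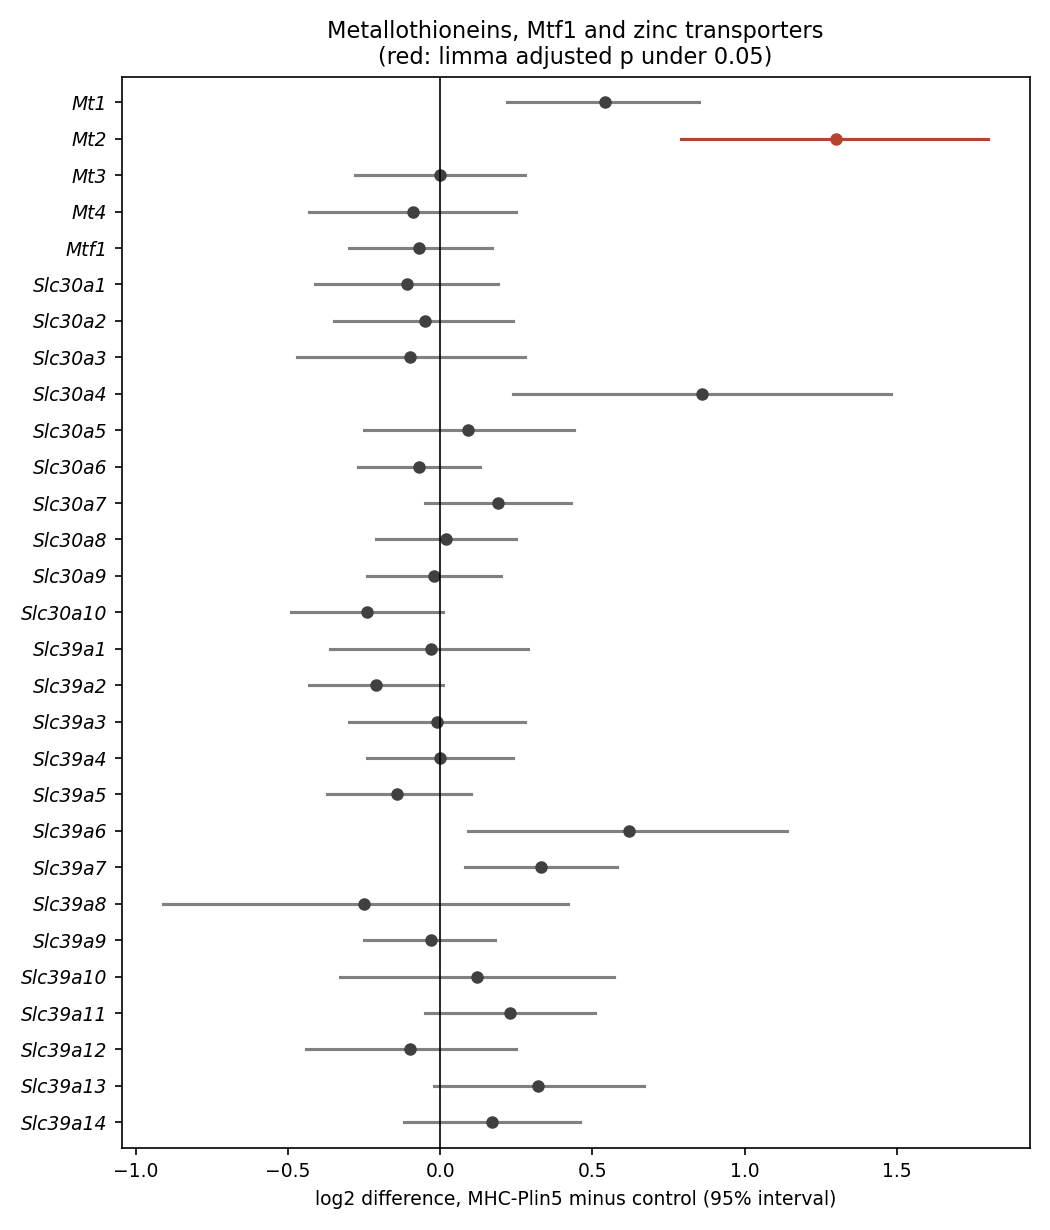
Log2 difference, MHC-Plin5 minus control (x axis), with its 95% interval for the 4 metallothioneins, Mtf1, 10 zinc exporters and 14 zinc importers (rows), red where the limma adjusted p was under 0.05. Only Mt2 is red, and the intervals of Mt1, Slc30a4, Slc39a6 and Slc39a7 also lie above 0.

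Of 8 measured genes reported as targets of MTF-1, 3 were called higher and 0 lower, where 3.25% of all genes were called, with a median difference of 0.39. Of the 8, 4 are among the 7 genes above, and 2 of the remaining 4 were called. The list was chosen with earlier results of these data known, so these counts are only a description. Neither the counts nor the median take account of whether MTF-1 raises or lowers a target. Selenow, a small selenoprotein with a role in redox reactions, was called higher besides Mt2. It measured 10.95, 10.85, 11.14 and 10.67 in MHC-Plin5 hearts 1 to 4, against 10.40, 10.33, 10.41 and 10.31 in control hearts 1 to 4. The groups were apart, and the difference was 0.54 (SE 0.11, limma adjusted p = 0.0255). Its adjusted p was at most 0.0762 and over the threshold without any single heart other than MHC-Plin5 4. Gclc, the catalytic subunit that starts glutathione synthesis and also a target of NRF2, stood at 8.48, 8.92, 9.02 and 8.53 in MHC-Plin5 hearts 1 to 4, against 8.25, 8.14 and 8.10 in control hearts 1 to 3 and a lower level in control heart 4. All MHC-Plin5 hearts were above the control range, with a difference of 0.61 (SE 0.14, limma adjusted p = 0.0339). Leaving out any 1 control heart, or heart 2 or 3 of the MHC-Plin5 group, ended its call, with an adjusted p of at most 0.118.

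Genes that handle copper, the other metal bound by metallothioneins, included Steap2, a metalloreductase that reduces iron and copper for uptake. It had 2 rows on the array. In the row with the higher mean it was 3.77-fold higher in MHC-Plin5 hearts. The levels in that row were 7.58, 7.74, 8.11 and 6.74 in MHC-Plin5 hearts 1 to 4, against 5.29, 5.43, 5.89 and 5.91 in control hearts 1 to 4. The groups were apart in every heart, with a difference of 1.92 (SE 0.26, limma adjusted p = 0.00273), and the adjusted p was at most 0.018 with any single heart left out. The other row averaged 3.87 in MHC-Plin5 and 3.94 in control hearts, near the lower end of the array's range, with a difference of -0.07 (limma unadjusted p = 0.614). The mean over both rows gave a difference of 0.92, still called (adjusted p = 0.0046). Cp, the copper-carrying ferroxidase ceruloplasmin, measured 10.92, 11.20, 11.25 and 10.77 in MHC-Plin5 hearts 1 to 4, against 10.59, 10.42, 10.33 and 9.94 in control hearts 1 to 4. Its groups did not overlap, and the difference was 0.72 (SE 0.16, limma adjusted p = 0.0324). Leaving out control heart 2, 3 or 4, or heart 2 or 3 of the MHC-Plin5 group, ended the call of Cp (adjusted p of at most 0.113). In all 2 of 14 copper genes were called higher and 0 lower, where 3.25% of all genes were called, and the median difference was -0.06. Of the 14, 7 had an unadjusted p under 0.05 in either direction (16.6% over all genes). The groups did not overlap for 3 with MHC-Plin5 higher and 2 lower (6.24% and 5% over all genes). The copper chaperone Atox1 was not called (0.30, limma adjusted p = 0.15).

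Of 21 measured iron genes, 7 had an unadjusted p under 0.05 in either direction (16.6% over all genes), and the median difference was 0.04. The groups did not overlap for 4 with MHC-Plin5 higher and 1 lower (6.24% and 5% over all genes). By limma 1 of the 21 was called higher and 0 lower, near the share of 3.25% over all genes. That gene was Hmox1, the heme oxygenase that frees iron from heme, with levels of 7.62, 8.18, 8.50 and 7.99 in MHC-Plin5 hearts 1 to 4, against 6.89, 7.05, 7.30 and 7.27 in control hearts 1 to 4. The lowest MHC-Plin5 heart lay above all control hearts. The difference was 0.95 (SE 0.17, limma adjusted p = 0.0161), and the call ended without control 1, control 2 or MHC-Plin5 2 (adjusted p of at most 0.0606). Ftl1, the light chain of the iron store ferritin, had 0.56 (limma adjusted p = 0.0511) and passed the threshold in 10 of 21 other settings. These include leaving out control 2 (0.68, adjusted p = 0.0234) or MHC-Plin5 4 (0.61, adjusted p = 0.0379), median centring (0.60, adjusted p = 0.0319) and array weights (0.62, adjusted p = 0.00609). Aco1, the cytosolic aconitase that also acts as an iron sensor, had -0.36 (limma adjusted p = 0.0569).

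**Figure D4:**
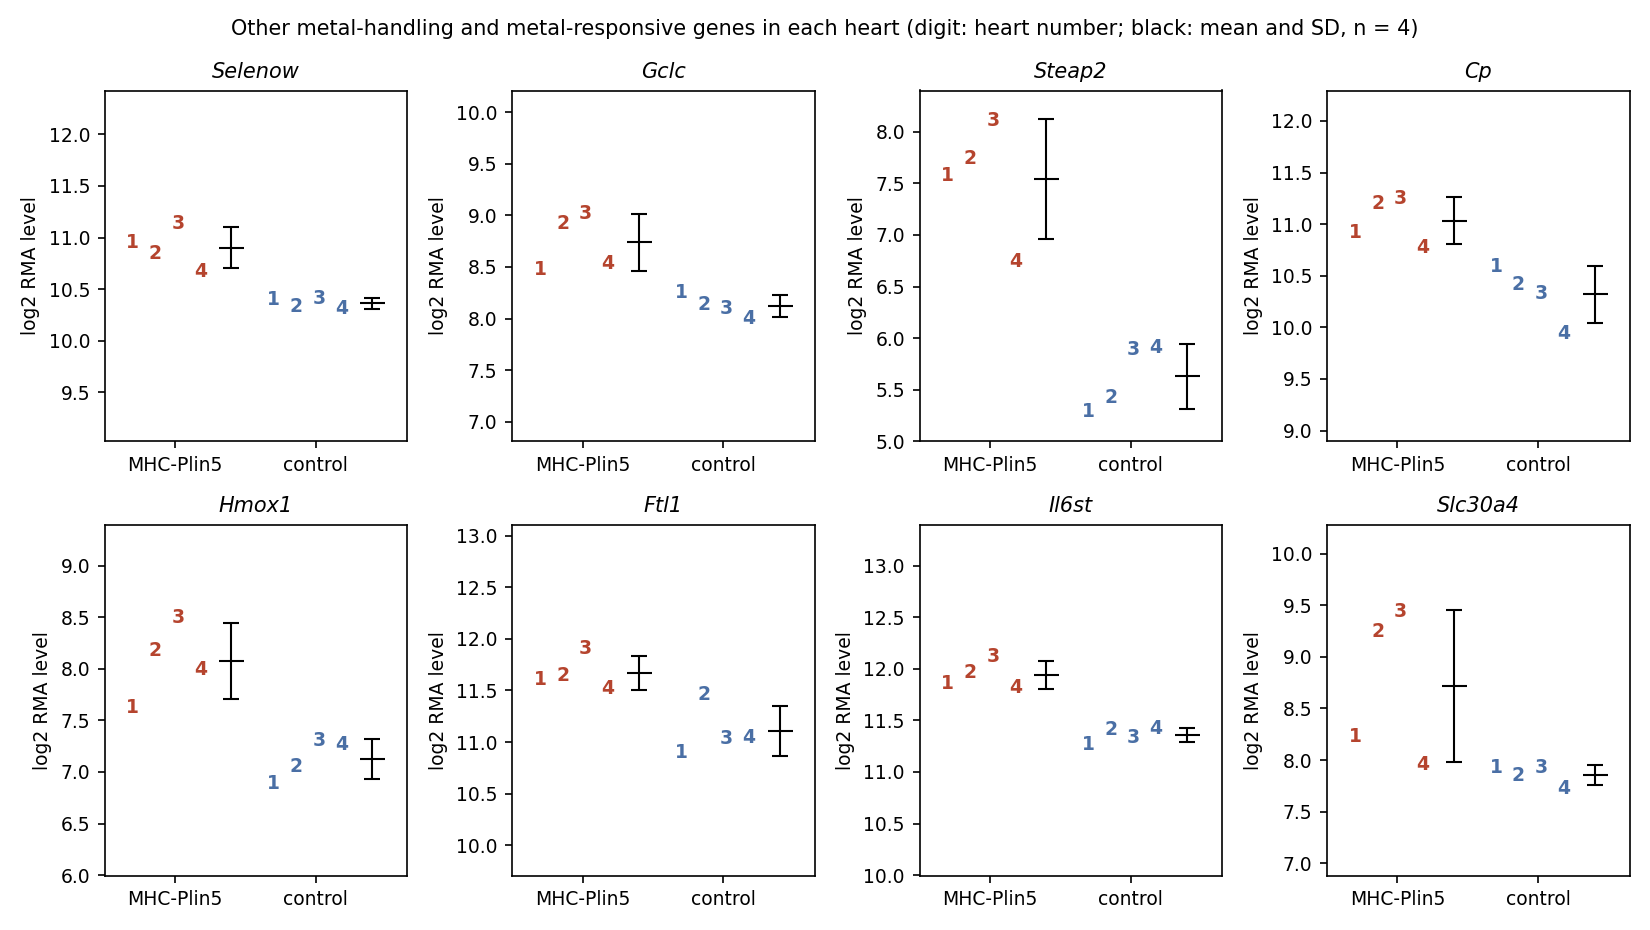
Log2 level (y axis) of 8 further genes in MHC-Plin5 hearts (left) and control hearts (right), with the heart number as the symbol and black bars for the mean and SD (n = 4). The genes are of metal handling or metal response, apart from Il6st. Shown are called genes of the lists with Ftl1 and Slc30a4, all higher in the means. Of the lists, 8 of 14 copper and 10 of 21 iron genes had a difference below 0, as did 11465 of all 19938 genes. In all 8 panels the MHC-Plin5 hearts lie above the control hearts, with heart 3 highest.

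Among the other known inducers of metallothionein genes, glucocorticoids and inflammatory cytokines were looked at through lists of related genes. No list of oxidant targets was made. Among 17 measured glucocorticoid targets, 1 was called higher and 0 lower, near the 3.25% of all genes, and that 1 was Mt2 itself. Leaving out Mt1 and Mt2, 0 of 15 were called by limma, 3 had an unadjusted p under 0.05 (16.6% over all genes), and the median difference was 0.05. The smallest p of these 15 was that of Cebpd, a transcription factor of the acute phase, with a difference of 0.46 (limma adjusted p = 0.108). Fkbp5 and Per1 did not pass the test, with differences of 0.38 and 0.05, and neither did Dusp1, with -0.49. Fkbp5, Per1 and Dusp1 were named after their values were seen.

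Among 21 genes of STAT3 signalling and the acute phase, 2 were called higher and 0 lower, where 3.25% of all genes were called, with a median of 0.21. Mt2 itself was among the called genes. Without the metallothionein and zinc transporter genes examined first, 1 of 18 was called higher and 0 lower by limma. Of these 18, 5 had an unadjusted p under 0.05 (16.6% over all genes), and the median difference was 0.21. The gene called besides Mt2 was Il6st, the signalling receptor subunit shared by cytokines related to Il6. It stood at 11.86, 11.96, 12.12 and 11.82 in MHC-Plin5 hearts 1 to 4, against 11.27, 11.41, 11.33 and 11.42 in control hearts 1 to 4. The groups were apart by more than their spread, with a difference of 0.58 (SE 0.10, limma adjusted p = 0.0108), and the adjusted p was at most 0.0468 with any single heart left out. Lifr, the partner of Il6st in the receptor for leukemia inhibitory factor, had -0.61 (limma adjusted p = 0.0569).

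Markers of other cell types were compared in the same hearts. Over all genes 3.25% were called by limma and 16.6% had an unadjusted p under 0.05. The difference was above 0 for 8473 of the 19938 genes and below 0 for 11465. All 5 macrophage markers and all 6 fibroblast markers had a difference above 0, and 0 of either list were called by limma. At an unadjusted p under 0.05 were 0 macrophage markers and 1 fibroblast marker. The mean level over the macrophage markers was 7.76 to 8.53 in MHC-Plin5 and 7.69 to 8.03 in control hearts, and over the fibroblast markers 8.86 to 9.52 and 8.71 to 9.13. All 3 neutrophil markers had a difference above 0, with a median of 0.32, and 0 were called while 2, S100a8 and S100a9, had an unadjusted p under 0.05. Their mean level was 5.14 to 5.46 in MHC-Plin5 and 4.85 to 5.29 in control hearts, below every array median. S100a8 ranged only from 4.74 to 5.50 over the hearts and Ly6g from 4.13 to 4.76. Endothelial, mural, adipocyte, and neuronal and glial markers had medians below 0, at -0.07, -0.16, -0.41 and -0.07. Of these lists 2 of 5, 2 of 4, 1 of 3 and 1 of 3 measured markers were above 0, and 0 were called.

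Among cardiomyocyte markers 7 of 8 had a difference below 0, with a median of -0.13. The groups did not overlap for 2 of them, and 0 were called by limma, 1 at an unadjusted p under 0.05. Over all genes, 5% had groups that did not overlap with MHC-Plin5 lower, 3.25% were called and 16.6% had such a p. A difference below 0 was seen for 11465 of the 19938 genes and one above 0 for 8473. Markers of atrial cardiomyocytes varied widely within both groups, with a mean over the 4 markers of 8.57 to 11.43 in MHC-Plin5 and 7.77 to 11.61 in control hearts. All 4 had a difference above 0, with a median of 0.87, and 0 were called by limma, 1 at an unadjusted p under 0.05. Acta1, the skeletal actin that the fetal heart also expresses, was called higher in the skeletal muscle list (1.90, SE 0.21, limma adjusted p = 0.000917), the 1 called gene of its 5. The part of any of these cell types in the Mt1 and Mt2 values was not tested.

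The genes whose pattern over the 8 hearts was most like Mt2 were Arhgef12, Stk40 and Clic5, with Pearson r of 0.983, 0.983 and 0.981. For Mt1 they were Creb5, Tbpl1 and Atxn2l, with 0.984, 0.983 and 0.974. Mt2 ranked 10 among the 14815 genes set against Mt1, and Mt1 ranked 28 against Mt2. With the group means taken out, the dim neutrophil marker S100a8, Creb5 and Dync1h1 were nearest to Mt1. Pabpn1, Pdgfd and Atpsckmt were nearest to Mt2, and r lay between 0.957 and 0.973 for both. The nearest gene was Fgl2 for Mt3 (r = 0.975), Neurl1b for Mtf1 (0.962), Safb for Slc30a1 (0.979), Lpp for Slc39a10 (0.980) and Maz for Slc39a14 (0.964). These are the highest of many r values over 8 hearts that share their arrays and depend on 2 groups, and are given as a description.

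The side of the threshold on which Mt1 and Mt2 fell depended on the settings. Mt1 passed it when genes with a mean level under 7 were left out, with an intensity trend and with array weights, at adjusted p values of 0.0453, 0.0474 and 0.0199. Mt2 missed it when every row of the table was tested, at 0.0544. The sign of both differences was positive in each of these settings.

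**Figure D5:**
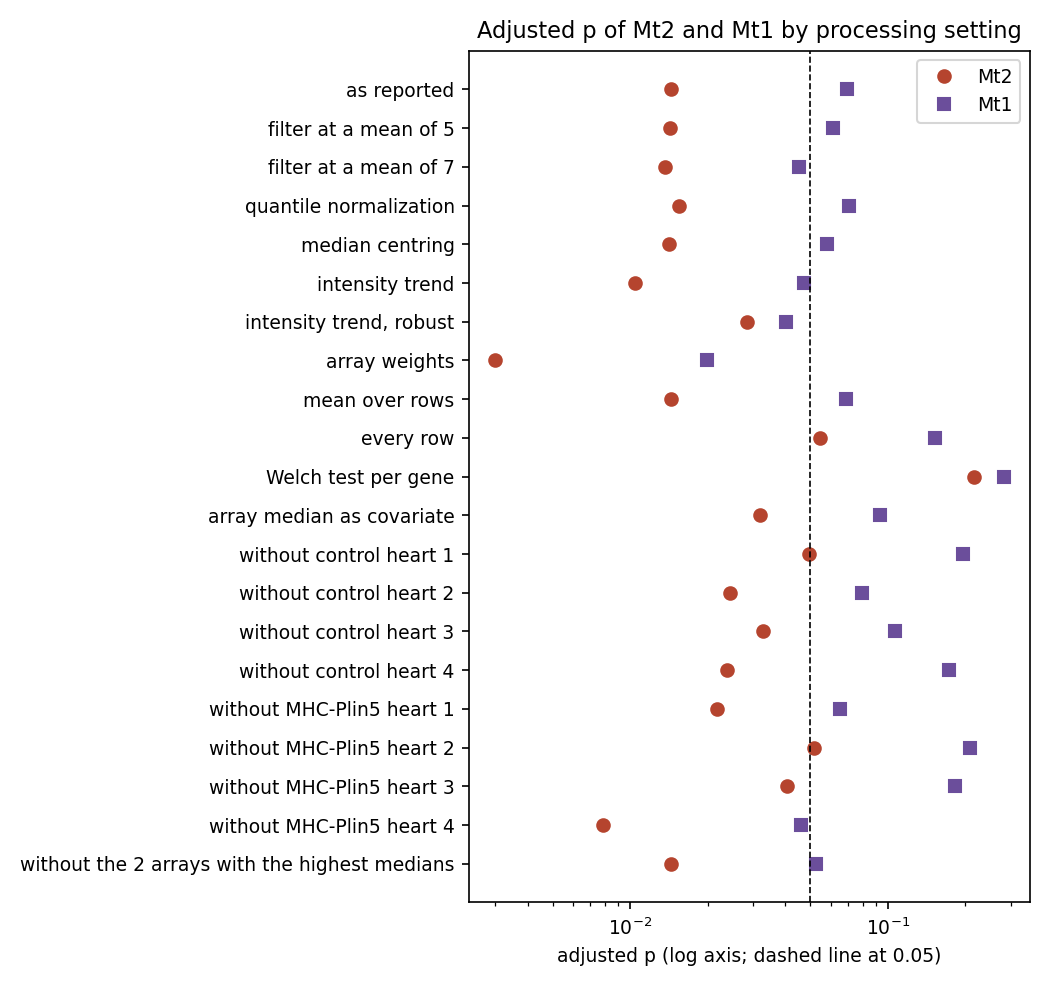
Adjusted p (x axis, log scale) of Mt2 (circles) and Mt1 (squares) under each processing setting (rows) except the heart number as a block, with the dashed line at 0.05. Mt2 lies left of the line in most settings and Mt1 right of it in most.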

How the data were processed

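Total RNA of 8 hearts (4 MHC-Plin5, 4 control) was labelled with biotin and hybridised to whole-transcript arrays, per the labels' protocols. Values were deposited on a log2 scale after RMA in the Expression Console of Affymetrix, according to the submitters' processing notes, which name neither its version nor the summary level. RMA normalizes between arrays, so differences are relative to the other genes. No detection call, scan date or scanner signal was used here, so background could not be redone and dim genes such as Mt4 have no bound.

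Of 35556 rows, 21789 had exactly 1 symbol in GEO's platform annotation. The row with the highest mean was kept for each gene, which left 19938 genes. Genotype was fitted by limma 3.58.1 (lmFit, eBayes) in R 4.3.3, two-sided, with Benjamini-Hochberg adjustment over all genes and a call at an adjusted p under 0.05. Exact permutation tests used scipy 1.17.1. The fit was tested on simulated data with known changes. No list was tested as a set.

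The 7 genes and the 8 lists were chosen with earlier results of these data known. Named were the 7 genes, any metallothionein or zinc transporter, from the other lists the called members and the 3 of smallest p, and the 3 genes most like each of the 7 by Pearson r, at a mean log2 level of 5 or more and without Gm, Rik or LOC names. Alternatives covered filters, normalization, variance models, array weights, row choice, the heart number as a block, the array median as a covariate, Welch's test and each heart left out.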

Additional observations from a re-analysis of the deposited data

Results flagged for a closer look

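Among 82 groups of 4 hearts checked over the named genes, 2 held a heart far from the other 3, where chance gives about 1 in 20. Slc39a2 was lowest in MHC-Plin5 1 at 5.12, against 5.27 to 5.29 in the other 3 MHC-Plin5 hearts. Slc30a7 was lowest in control 4 at 7.53, against 7.63 to 7.64 in the other 3 control hearts. Neither was called, and 0 of the 7 genes had such a heart.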

How the results depend on the processing

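Of the 7 genes, 2 were called with a filter at a mean of 7, an intensity trend, the same with robust variances, array weights or the replicate block, and 0 when every row was tested or by Welch's test, against 1 as reported. With single hearts left out the number was 0 to 2. Mt1 was called at a difference of 0.54 with the filter at 7, with the trend (plain or robust) and with the block (adjusted p = 0.0347), and at 0.61 with array weights. Its range was 0.46 to 0.61 with single hearts left out. Mt2 was not called at 1.30 with every row or by Welch's test, and ranged from 1.08 to 1.43 with single hearts left out. Mt3 changed sign, at 0.04 with median centring, 0.06 with array weights, 0.10 without the 2 arrays with the highest medians and -0.09 to 0.06 with single hearts left out. Slc39a10 ranged from -0.07 to 0.30 with single hearts left out and was 0.32 without the 2 arrays with the highest medians. Mtf1, Slc30a1 and Slc39a14 kept their sign and were not called in all 21 settings. The difference between the shifts of Mt2 and Mt1, an alternative added after the data were seen, was 0.62 to 0.84 with single hearts left out. With array weights 1 exporter, Slc30a4, was called (0 as reported), and with single hearts left out 0 to 1. No importer was called in any of the 21 settings. The other lists had 7 called genes as reported, 11 with the filter at 7 or median centring, 12 with quantile normalization or either trend, 17 with array weights, 2 with every row, 0 by Welch's test and 2 to 13 with single hearts left out. Over all genes, 648 were called as reported, 1625 with array weights and 28 by Welch's test. With single hearts left out the count was 233 (without MHC-Plin5 2) to 1174 (without MHC-Plin5 4). When every row was tested, 301 of the 35556 rows were called. Testing every row raises the number of tests; the cause of the other changes was not tested. Of all calls, 64% were higher as reported, 54.4% with array weights, 82.1% by Welch's test, 74.2% among the kept rows when every row was tested and 52.3% to 76% with single hearts left out. The heart numbers were not taken to pair hearts, since deviations of hearts with the same number correlated at 0.187, 0.025, -0.107 and -0.04. With the heart number as a block Gclc was not called (0.61, adjusted p = 0.0554), and with the array median as a covariate neither Gclc (0.59, adjusted p = 0.0545) nor Cp (0.70, adjusted p = 0.0561) was. Hmox1 was not called without the 2 arrays with the highest medians (0.95, adjusted p = 0.0563). With every row tested, Selenow, Gclc, Cp and Hmox1 were not called (adjusted p = 0.0696, 0.0926, 0.0922 and 0.0567).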
